A study of Mus musculus with 2 samples.

Results

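S100 proteins are a family of small calcium-binding proteins, and 10 of their genes (S100a1, S100a3, S100a4, S100a5, S100a6, S100a10, S100a11, S100a13, S100a16 and S100b) were followed here in cultured neural retinal progenitor cells (mNRPCs) and in retina tissue of the mouse. They were taken by name from the 31253 genes that could be matched in the expression table, which holds 18 S100 genes in all. S100a4, S100a6 and S100a11 led to this choice, as they were among the genes with the largest ratios of mNRPC over retina. The levels in these libraries therefore chose the members, and their values are given as a description.

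There was 1 library for each group, both from the C57BL/6 strain. The mNRPC library was made from cells at passage 24. By the study's methods this line came from adult retina, and its medium contained bFGF, a growth factor, and CHIR99021, which inhibits the kinase GSK3. The comparison library was made from whole retina, a tissue of many cell types, whose age is not given in the labels. A single cultured line and a single tissue sample leave no spread between replicates, so no difference was tested and no p-value is given. In libraries of bulk RNA, fewer cells of a type and less RNA per cell cannot be told apart.

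An S100 protein carries a pair of EF-hand motifs, helix-loop-helix folds in which the loop can hold a calcium ion. Most members work as dimers. When calcium binds, the dimer opens a surface that takes hold of target proteins such as annexins or parts of the cytoskeleton, and some members also act outside the cell on receptors such as RAGE. In nervous tissue S100b is known from glia, whereas S100a4, S100a6, S100a10 and S100a11 are known from motile and dividing cells of many tissues.

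Values were FPKM, fragments scaled to the length of the transcript and to the size of the library, and were summed over the transcripts of a gene. Because FPKM is per length, levels of different genes can be set side by side within a library. The log2 ratio of a gene was taken as log2((mNRPC FPKM + 1)/(retina FPKM + 1)), and a gene counted as higher in mNRPCs from a ratio of 1 upward and as lower from -1 downward. Depth was estimated from the steps between low values as 7.30e+06 fragments for mNRPCs and 5.76e+06 for retina. The 95% intervals below are Poisson intervals on the fragments estimated at that depth, those of a fold are exact binomial intervals on the fragments of both libraries, and all cover counting error only.

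The identity of the libraries was checked first. All 5 progenitor markers (Pax6, Six3, Sox2, Nes and Ccnd1) had at least 1 FPKM in mNRPCs, with a summed level of 774 FPKM against 158 FPKM in retina, where 4 of the 5 had at least 1 FPKM. Ccnd1 (371 and 4.26 FPKM) and Sox2 (231 and 18.5 FPKM) carried this difference, while Pax6 (123 and 101 FPKM) and Six3 (39.7 and 33.2 FPKM) had like levels in both. The 8 rod markers summed to 20487 FPKM in retina and to 7.88 FPKM in mNRPCs. The study also names recoverin as a marker of mNRPCs, by immunofluorescence, and shows GFAP in them by immunofluorescence and RT-PCR. Protein staining and amplified RNA are other measures than FPKM of a single library, so the values below are not a like comparison. Here Rcvrn, counted among the rod markers, was at 0.133 FPKM in mNRPCs and 783 FPKM in retina. Gfap was at a listed 0 in mNRPCs and 5.33 FPKM in retina. Both libraries thus held the listed progenitor or rod markers of their labels, but in mNRPCs neither Rcvrn nor Gfap reached 1 FPKM.

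The windows printed next are the 250 bases before the start site of 5 members that span the range of ratios, namely the 3 members with the largest ratios, S100a13 with an intermediate ratio, and S100b, the member that was lower. They are RefSeq sequences of GRCm38.p6, read 5′ to 3′ on the plus strand, and lie at chr3:90603520-90603769 (S100a4), chr3:90612644-90612893 (S100a6), chr3:93520246-93520495 (S100a11), chr3:90514185-90514434 (S100a13) and chr10:76253586-76253835 (S100b). Capitals mark motif matches on either strand. The letters searched were TATAAA for the TATA box, then GGGCGG for the factor Sp1, then TGANTCA for AP-1, the pair of Fos and Jun, and last CTTTGA for the TCF/LEF factors of Wnt signalling.
S100a4: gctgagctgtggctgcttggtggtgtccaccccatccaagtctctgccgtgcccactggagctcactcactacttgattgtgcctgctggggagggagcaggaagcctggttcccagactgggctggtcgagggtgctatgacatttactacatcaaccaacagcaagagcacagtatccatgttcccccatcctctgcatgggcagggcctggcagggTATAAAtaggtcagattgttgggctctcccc
S100a6: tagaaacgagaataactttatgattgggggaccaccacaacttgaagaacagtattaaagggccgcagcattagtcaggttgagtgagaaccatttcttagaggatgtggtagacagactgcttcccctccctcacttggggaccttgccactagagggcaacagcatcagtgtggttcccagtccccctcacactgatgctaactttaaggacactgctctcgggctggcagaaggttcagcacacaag
S100a11: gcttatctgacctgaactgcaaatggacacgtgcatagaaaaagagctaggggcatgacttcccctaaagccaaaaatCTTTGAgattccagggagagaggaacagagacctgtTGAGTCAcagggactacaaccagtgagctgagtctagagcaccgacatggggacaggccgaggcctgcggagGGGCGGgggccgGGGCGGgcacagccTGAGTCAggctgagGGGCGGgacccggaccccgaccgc
S100a13: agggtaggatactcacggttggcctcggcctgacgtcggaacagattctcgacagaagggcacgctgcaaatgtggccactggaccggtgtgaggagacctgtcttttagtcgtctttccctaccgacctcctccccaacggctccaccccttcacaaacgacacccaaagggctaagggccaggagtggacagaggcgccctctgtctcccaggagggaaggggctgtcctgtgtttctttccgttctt
S100b: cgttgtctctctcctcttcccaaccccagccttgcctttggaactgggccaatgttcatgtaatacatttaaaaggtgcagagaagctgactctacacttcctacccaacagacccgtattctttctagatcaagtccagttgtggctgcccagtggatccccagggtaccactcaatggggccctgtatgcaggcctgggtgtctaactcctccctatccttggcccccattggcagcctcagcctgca

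The windows of the 3 leading genes differed in these motifs. The S100a4 window held TATAAA from 31 to 26 bases before the start. The S100a11 window held no TATAAA but GGGCGG at 3 places (64 to 59, 52 to 47 and 24 to 19 bases before the start), TGANTCA at 136 to 130 and 38 to 32 bases, and CTTTGA at 172 to 167 bases. In the S100a6, S100a13 and S100b windows these letters were not found, and no matches shared a base. Matches were also found in members with low or like levels, with GGGCGG and TGANTCA before a start of S100a16, and the TATA, Sp1 and TCF/LEF letters before starts of S100a3, so these motifs do not set the leading genes apart. Of all 27025 genes with a window of this kind, 13% held TATAAA, 32.9% held GGGCGG, 6.87% held TGANTCA and 14.0% held CTTTGA. The matches are descriptions of sequence, not sites of binding. A window was on hand for 9 of the 10 members.

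Of the 10 S100 genes, 9 had at least 1 FPKM in a library and entered the comparison. Among them 7 were higher in mNRPCs, 1 was lower and 1 lay between. Over all 13780 genes compared, 24.5% were higher and 30% lower, but as the members were chosen on this contrast nothing is read from their count. The median log2 ratio of the 9 genes was 3.52, against -0.12 over all genes compared. Summed over the 10 genes, S100 transcripts reached 10865 FPKM in mNRPCs and 139 FPKM in retina, a ratio of 78.2. Of the FPKM of all matched genes they made up 1.89% in mNRPCs and 0.0357% in retina.

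**Figure D1:**
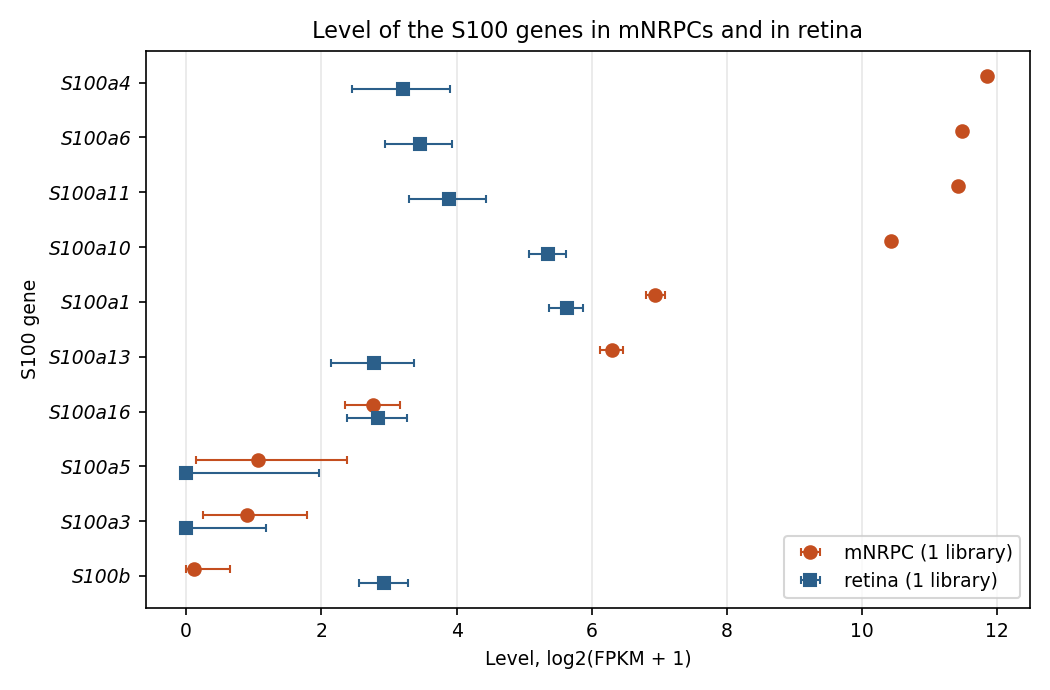
Level of the 10 S100 genes as log2(FPKM + 1) in the mNRPC library (circles) and in the retina library (squares), with bars for the 95% counting interval at the estimated depth. S100a4, S100a6, S100a11 and S100a10 lie far to the right in mNRPCs, S100a16 lies at like levels in both, and S100b is the only gene of the 10 with clearly more in retina.

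S100a4 encodes metastasin, which binds the heavy chain of nonmuscle myosin IIA and is known from migrating cells. Its level was 3699 FPKM in mNRPCs (interval 3617 to 3782) and 8.23 FPKM in retina (4.46 to 13.9). Behind these values stood an estimated 7780 and 13.7 fragments. The plain fold was 449 (266 to 829) and the log2 ratio, with 1 added to each value, 8.65, which on that scale was the largest of all 13780 genes compared. Ordered by level, S100a4 was number 11 of the mNRPC library and number 7429 of the retina library. One curated transcript of 498 bases held 98.8% of the gene's FPKM in mNRPCs and 94.3% in retina, so the sum hardly depends on how reads were divided among its 3 transcripts.

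S100a6 encodes calcyclin, a protein of dividing cells that binds CACYBP and several annexins. It was at 2838 FPKM in mNRPCs (2785 to 2892) and at 9.96 FPKM in retina (6.71 to 14.2), from an estimated 10800 and 29.9 fragments. The fold was 285 (199 to 423) and the log2 ratio 8.02, number 5 of all genes compared.

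S100a11 encodes calgizzarin, a partner of annexin A1. Its level was 2749 FPKM in mNRPCs (2680 to 2819) and 13.8 FPKM in retina (8.87 to 20.6). The estimated fragments were 6043 and 24.0, the fold 199 (133 to 310) and the log2 ratio 7.53, number 10 of all genes compared. In mNRPCs the intervals of S100a6 and S100a11 overlapped in part, whereas that of S100a4 lay above both.

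S100a10 has lost the ability to bind calcium and pairs with annexin A2 in a complex at the cell membrane. It stood at 1372 FPKM in mNRPCs (1333 to 1411) and at 39.9 FPKM in retina (32.8 to 48.1), with a fold of 34.4 (28.4 to 42.0) and a log2 ratio of 5.07. In mNRPCs only S100a4, S100a6 and S100a11 had higher levels among the S100 genes, and in retina only S100a1. Its ratio was smaller than those of S100a4, S100a6 and S100a11. As the large ratios of those genes in these libraries led to the choice of members, this order is a description only.

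S100a13 takes part in the release of FGF1 from cells by a route outside the usual secretory pathway. It had 77.5 FPKM in mNRPCs (68.8 to 87.0) and 5.84 FPKM in retina (3.40 to 9.35). Its fold was 13.3 (8.14 to 23.1) and its log2 ratio 3.52.

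S100a1 is best known from heart muscle, where it acts on calcium release. It was at 122 FPKM in mNRPCs (110 to 134) and at 48.5 FPKM in retina (40.5 to 57.5), a fold of 2.51 (2.06 to 3.09) and a log2 ratio of 1.31. In retina no S100 gene was higher, although the interval of S100a10 overlapped with that of S100a1. Its ratio passed the threshold by little and fell below it under 3 other ways of scaling, with log2 ratios of 0.761 with a common sum, 0.789 relative to genes of like length and 0.89 without rod, cone and ribosomal protein genes.

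S100a1 and S100a13 are neighbours on chromosome 3 and are read in opposite directions, from start sites at 90514330 (minus strand) and 90514435 (plus strand) that lie 105 bases apart. The S100a13 sequence printed above also runs through the start of S100a1. Within the mNRPC library S100a1 was the higher of the pair, as it was in retina. Each gene had 1 transcript in the table. The RefSeq gene bounds of S100a13 begin further upstream, at 90514233, and there overlap the start of S100a1. Whether reads were counted by strand is not given in the sources used here, so reads from this overlap cannot be assigned with certainty. The log2 ratio was larger for S100a13 (3.52) than for S100a1 (1.31), and the counting intervals of their folds did not overlap. These intervals do not cover reads assigned to the wrong gene of the pair.

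S100a16 is made in many tissues and its role is less well known. It was at 5.80 FPKM in mNRPCs (4.12 to 7.94) and at 6.13 FPKM in retina (4.20 to 8.64). The fold of 0.947 (0.578 to 1.56) leaves room for a difference in either direction, and none was detectable at this depth.

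S100b is the S100 protein of glia, made by astrocytes and Muller glia of the retina. It was at 6.60 FPKM in retina (4.88 to 8.74), an estimated 48.5 fragments, and at 0.0875 FPKM in mNRPCs, less than 1 estimated fragment. With so few fragments in mNRPCs no single fold is given, and the counting interval of the fold ran from 0.000159 to 0.0894. The log2 ratio was -2.81. The sums of glial markers were also lower in mNRPCs. The 7 Muller glia markers summed to 54.1 FPKM in mNRPCs (3 of 7 with at least 1 FPKM) and to 2042 FPKM in retina (7 of 7), with Glul, glutamine synthetase, at 31.4 and 897 FPKM and Rlbp1, a retinoid carrier, at 0.0986 and 202 FPKM. The 4 astrocyte markers summed to 1.83 and 11.7 FPKM, with Gfap at a listed 0 in mNRPCs and 5.33 FPKM in retina. Pdgfra, at 1.76 FPKM in mNRPCs and 1.23 FPKM in retina, made up most of the astrocyte sum in mNRPCs, and Pax2 was at 0 in mNRPCs and at 0.0669 FPKM in retina. The part of these cells in the S100b difference was not tested.

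S100a3, known from the hair cuticle, and S100a5, known from olfactory sensory neurons, were at the edge of detection. In mNRPCs the level of S100a5 was 1.08 FPKM from an estimated 1.74 fragments, and retina had a listed value of 0. All of this value lay on 1 predicted transcript, and the curated transcript was at 0. The reference gave no length for predicted transcripts, so the fragments of S100a5, and in part those of S100a3 and S100a7a, were estimated with the length of the curated transcript. The level of S100a3 was 0.866 FPKM in mNRPCs, where an estimated 3.17 fragments were spread over 4 transcripts. Retina again had a listed value of 0, and S100a3 did not reach 1 FPKM in a library. With so few fragments the count of S100a5 among the higher genes rests on an estimate under the limit of 3 fragments (1.86 FPKM), and no fold is given for either gene.

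The makeup of the S100 pool differed between the libraries. In mNRPCs S100a4 held 34.0% of the summed S100 FPKM, S100a6 26.1%, S100a11 25.3% and S100a10 12.6%, together 98.1%, and S100a1 held 1.12%. In retina S100a1 held 34.9%, S100a10 28.7%, S100a11 9.96%, S100a6 7.17% and S100a4 5.92%. The pool of mNRPCs was thus carried by 4 genes with 1 of them leading by a modest margin, and that of retina by S100a1 and S100a10. In retina the intervals of S100a11, S100a6, S100a4, S100b, S100a16 and S100a13 each overlapped with that of the next gene in the order, so their order is uncertain from one neighbour to the next. S100a11, at the top of these 6, lay above S100b and S100a16 with no overlap.

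Of the other 8 S100 genes in the table, 5 were listed at 0 in both libraries (S100a2, S100a7l2, S100a9, S100g and S100z), and none came near the level of the 4 leading members. S100a7a, a gene of skin, had 2.44 FPKM in mNRPCs from an estimated 19.1 fragments, and a listed value of 0 in retina. S100a14, a gene of epithelia, had 0.321 FPKM in mNRPCs from an estimated 1.99 fragments and 2.21 FPKM in retina from 10.8, a fold of 0.145 (0.0156 to 0.670). S100a8 and S100a9 form calprotectin, the S100 complex of neutrophils and monocytes. For S100a8 the level was 0.646 FPKM in mNRPCs, from an estimated 1.30 fragments, with 0 listed for retina.

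In chromosome order, the members with high and low levels were interleaved. A total of 15 S100 genes, 9 of them members, lie on chromosome 3 between 90511034 and 93564645 (RefSeq annotation of GRCm38.p6), and S100b lies alone at chr10:76253836-76261319. S100a4 (chr3:90603770-90606045) and S100a6 (chr3:90612894-90614414) are separated by 1 protein-coding gene, S100a5 (chr3:90606480-90611784), so that genes at 3699 and 2838 FPKM in mNRPCs flank one at 1.08 FPKM. On the other side of S100a4, S100a2 was listed at 0 and S100a3 was at 0.866 FPKM. S100a11 (chr3:93520496-93526288) and S100a10 (chr3:93555117-93564645) form a separate pair at the far end, with 2749 and 1372 FPKM.

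**Figure D2:**
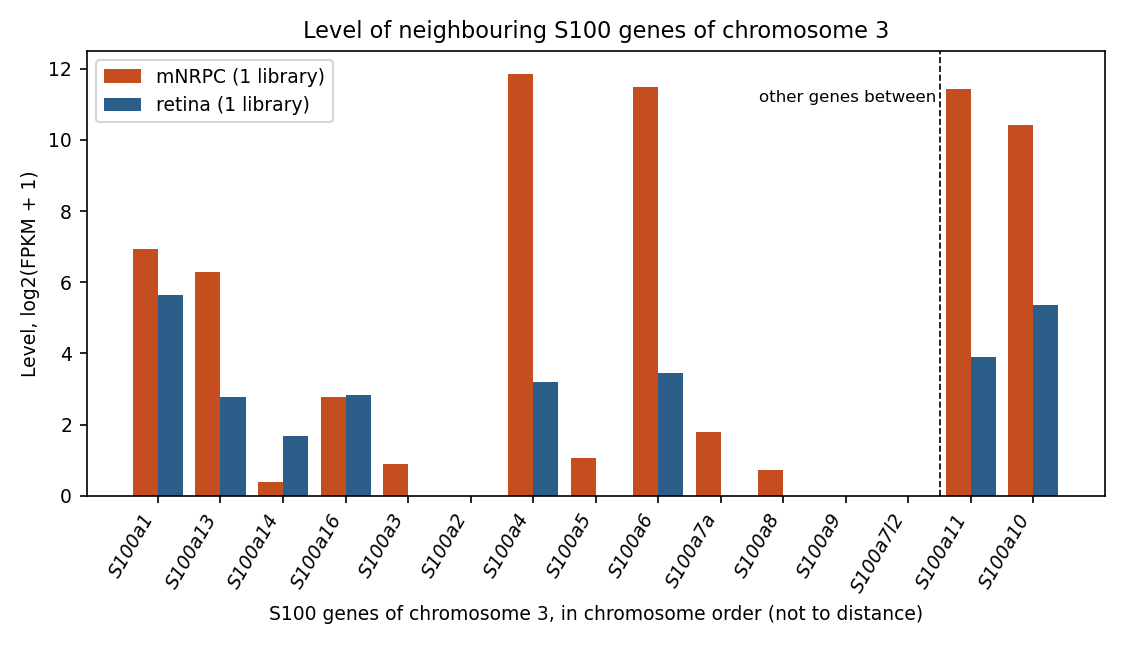
Level of the 15 S100 genes of chromosome 3 as log2(FPKM + 1) in mNRPCs and in retina (1 library each), in chromosome order but not to distance, with a dashed line where other genes lie between. S100a4 and S100a6 stand tall on either side of S100a5, and S100a11 and S100a10 form a second high pair.

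Of the genes at the borders of the S100 blocks, the 4 with a value in the table were neither higher nor lower at the threshold. Chtop, a chromatin protein gene beside S100a1, was at 92.7 FPKM in mNRPCs and 104 FPKM in retina, a log2 ratio of -0.16. Pglyrp4, beside S100a9, had 0.0368 FPKM in mNRPCs and a listed value of 0 in retina. Tchhl1, next to S100a11, was listed at 0 in both libraries, and Tdpoz2, next to S100a10, was at 0 in both after rounding.

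The members also shared features of structure. In the GENCODE M21 annotation 9 of the 10 matched transcripts had 3 exons with the coding part in exons 2 and 3, and that of S100a13 had 4 exons. Most are short, with 8 of the 10 between 400 and 800 bases. Short genes as a class leaned toward mNRPCs in these libraries: the 502 compared genes of that length had a median log2 ratio of 0.47, with 36.9% higher and 25.7% lower. Relative to genes of like length, the log2 ratio of S100a10 was 4.62 and that of S100a1 was 0.789, under the threshold. A single matched GENCODE transcript per gene was also compared over the 45 pairs of members. The longest run of identical bases on the same strand was 15 bases (S100a5 and S100a6). A read of ordinary length would thus not fit 2 of the compared transcripts equally. Predicted transcripts, and the RefSeq bounds of S100a13 that overlap S100a1, were not part of this comparison. A pseudogene of S100a11 is annotated elsewhere in the genome, and how reads were shared with it is not known.

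Genes whose products bind S100 proteins, or act with them, were examined as a list of 40. In all, 34 had at least 1 FPKM in a library, of which 19 were higher in mNRPCs (55.9%), 7 lower (20.6%) and 8 between, with a median log2 ratio of 1.44. The shares over all genes compared were 24.5% and 30%, with a median of -0.12. The list was drawn up with earlier results of these data known, so the counts are a description.

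Annexins bind membranes in the presence of calcium, and all 5 annexin genes of the list were higher in mNRPCs. Anxa2, the partner of S100a10, was at 793 FPKM in mNRPCs and 9.62 FPKM in retina, a log2 ratio of 6.22. Anxa1, the partner of S100a11, was at 489 and 14.5 FPKM, a log2 ratio of 4.99. Both had more in mNRPCs, as did S100a10 and S100a11. The list and the members were chosen with results of these data known, so this is a description. Anxa5 was at 718 and 38.7 FPKM (4.18), Anxa11 at 24.1 and 2.37 FPKM (2.90) and Anxa6 at 69.6 and 15.9 FPKM (2.06). Ahnak, which encodes a giant scaffold protein that binds the S100a10 and annexin A2 complex, was at 45.4 and 0.491 FPKM (4.96). Among its transcripts of known length, the one with the highest FPKM had 830 bases. The value therefore cannot be taken as the level of the long transcript of the giant protein.

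Partners that act in the cytoskeleton were not a list of their own, and their values are given singly. Myh9, the heavy chain of nonmuscle myosin IIA, was at 81.8 FPKM in mNRPCs and 10.02 FPKM in retina, a log2 ratio of 2.91. Ppfibp1, or liprin beta 1, was at 59.97 and 7.07 FPKM (2.92), and Iqgap1, a scaffold of actin filaments, at 37.0 and 3.33 FPKM (3.13). Capza1, a capping protein of actin, was at 117 and 24.96 FPKM (2.19), and its sister subunit Capza2 at 119.99 and 82.8 FPKM (0.53), which did not reach the threshold. Ezr, which ties actin to the membrane, was at 47.2 and 3.80 FPKM (3.33). Cacybp, which encodes the calcyclin-binding protein, was at 77.7 and 39.2 FPKM with a log2 ratio of 0.97, just under the threshold. Outside the cytoskeleton, Trp53, the tumour suppressor p53, was at 99.2 and 7.84 FPKM (3.50), and Plat, the tissue plasminogen activator, at 56.2 and 3.78 FPKM (3.58).

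Not all partner genes followed the S100 genes. Ager, which encodes the receptor RAGE, was at 0.980 FPKM in mNRPCs and 1.56 FPKM in retina, a log2 ratio of -0.37. Fgf1 itself and Syt1, partners of S100a13 in the release of FGF1, were lower in mNRPCs, whereas S100a13 was higher. They were not a list of their own, and 30% of all genes compared were lower. Fgf1 was at 0.922 FPKM in mNRPCs and 11.3 FPKM in retina (-2.68), and Syt1, a calcium sensor of synaptic vesicles, at 2.41 and 233 FPKM (-6.10). Syn1, another protein of synaptic vesicles, was at 0.592 and 28.2 FPKM (-4.20), and Dlc1, a tumour suppressor, at 0.197 and 13.2 FPKM (-3.57). The other 3 partners that were lower encode ion channels, with log2 ratios of -2.82 for Ryr2, -2.73 for Kcnk3 and -1.97 for Asic1.

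**Figure D3:**
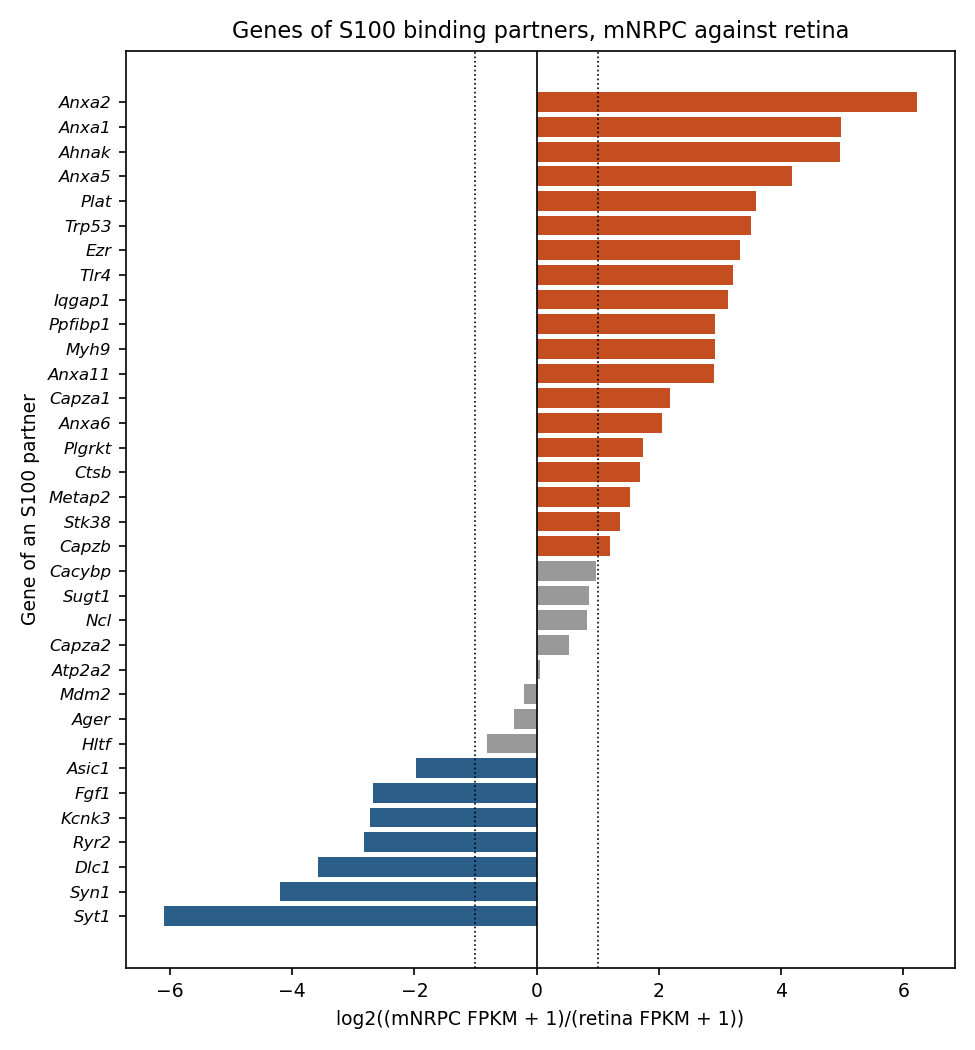
The log2 ratio of mNRPC over retina for the 34 partner genes with at least 1 FPKM in a library, with dotted lines at the threshold of 1 in size. Of these genes 19 were higher (upper bars, led by Anxa2 at 6.22), 8 between and 7 lower (lowest, Syt1 at -6.10).

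For each of the 3 leading S100 genes, the genes with the most similar pair of levels were listed. Likeness was taken as the distance of log2(FPKM + 1) over the values of both libraries. For S100a4 the nearest genes were S100a6 (0.455), S100a11 (0.808) and Crabp1 (1.10), a binding protein of retinoic acid at 5456 FPKM in mNRPCs and 16.7 FPKM in retina. For S100a6 these were S100a11 (0.440), S100a4 (0.455) and Nupr1 (0.959), a nuclear protein of the stress response at 2180 and 19.2 FPKM. For S100a11 these were S100a6 (0.440), Nupr1 (0.554) and Ifitm3 (0.739), a membrane protein induced by interferon at 1923 and 20.4 FPKM. The 3 S100 genes were chosen for their large ratios over these same 2 values, so their closeness to each other is a description only.

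Cell types other than retinal neurons also make S100a4, S100a6, S100a10 and S100a11, and their markers were read in both libraries. The 10 microglia and macrophage markers summed to 3.06 FPKM in mNRPCs and 19.5 FPKM in retina, and 7 of them, Aif1, Cx3cr1, Ptprc and the C1q genes included, were listed at 0 in mNRPCs. The 5 epithelial markers summed to 0.199 and 28.6 FPKM, and the 6 endothelial markers to 2.72 and 42.6 FPKM, with Cdh5 and Cldn5 listed at 0 in mNRPCs. The 7 markers of pericytes and smooth muscle summed to 14.7 and 14.9 FPKM, but the members went in different directions. Acta2, smooth muscle actin, had 10.1 FPKM in mNRPCs and 4.39 FPKM in retina (log2 ratio 1.05) and Pdgfrb, a growth factor receptor, 4.49 and 1.24 FPKM (1.29), whereas Rgs5 had a listed value of 0 in mNRPCs and 8.16 FPKM in retina. The 6 markers of pigment epithelium summed to 9.35 and 75.5 FPKM, and the 5 of Schwann cells and oligodendrocytes to 0.305 and 10.6 FPKM. The sums of the macrophage, epithelial, endothelial, pigment epithelium and Schwann cell lists were thus lower in mNRPCs, but single members went the other way. Rdh5 (9.28 FPKM in mNRPCs and 4.63 in retina) made up nearly all of the pigment epithelium sum in mNRPCs, and Cd68 (1.82 and 1.35) with Tmem119 (1.22 and 0.880) nearly all of the macrophage sum. The epithelial sum in retina was mostly Krt18, at 26.5 FPKM, and Epcam was listed at 0 in both libraries. The 7 fibroblast markers summed to 461 FPKM in mNRPCs and 8.58 FPKM in retina, of which Col3a1, a fibrillar collagen, gave 450 FPKM in mNRPCs. Of the other fibroblast markers, Fbln1 (5.85 FPKM in mNRPCs and 2.95 in retina), Pdgfra (1.76 and 1.23) and Col1a1 (1.35 and 0.552) had more in mNRPCs. Dcn (1.96 and 2.58 FPKM) and Col1a2 (0.0843 and 0.952) had less, and Lum was listed at 0 in both. The part of such cells in the S100 levels was not tested.

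**Figure D4:**
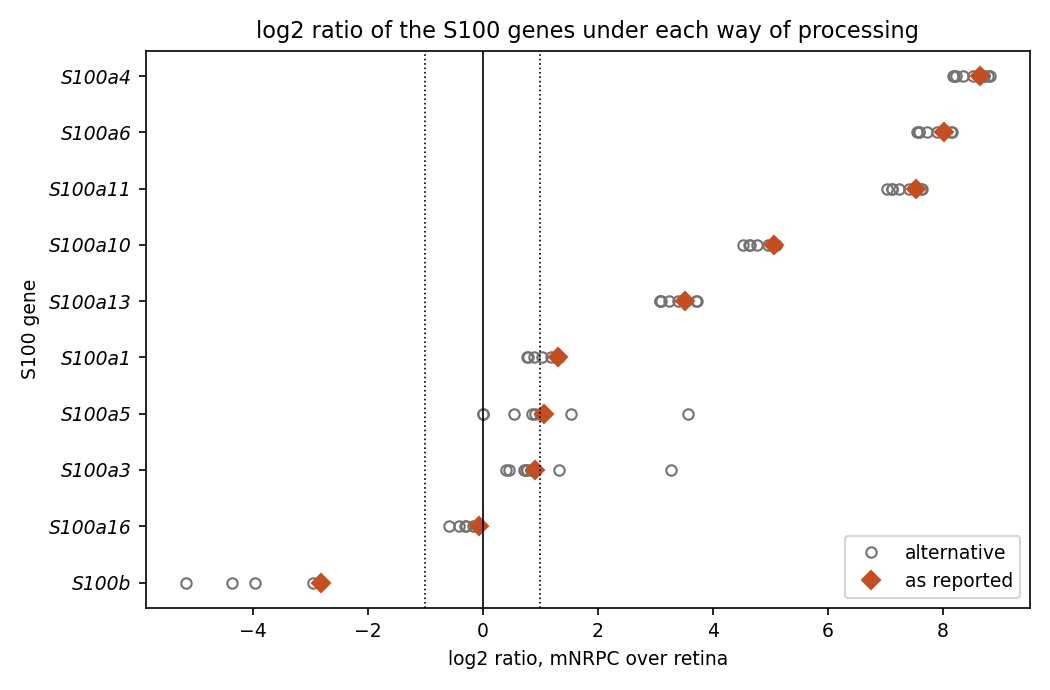
The log2 ratio of mNRPC over retina for each S100 gene as reported (diamonds) and under alternative ways of processing (open circles). Alternatives of the filter and of the threshold do not alter a ratio and are not drawn. Dotted lines mark the threshold of 1 in size. S100a4, S100a6, S100a11, S100a10 and S100a13 stay above the threshold and S100b below it, whereas S100a1, S100a5 and S100a3 cross it.

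In all 13 settings run, 5 genes (S100a4, S100a6, S100a10, S100a11 and S100a13) were higher in mNRPCs and S100b was lower. The plot of ratios leaves out the settings that changed only the filter or the threshold, as these do not alter a ratio. The log2 ratio ranged from 8.18 to 8.81 for S100a4, from 7.54 to 8.15 for S100a6, from 7.03 to 7.63 for S100a11, from 4.53 to 5.10 for S100a10 and from 3.08 to 3.73 for S100a13. For S100b it ranged from -5.16 to -2.81, and for S100a16 from -0.60 to -0.07. S100a1 ranged from 0.76 to 1.33, so that its place among the higher genes depends on the scaling. The ranges were wider for S100a3 (0.39 to 3.27) and S100a5 (0.00 to 3.56), each highest with a pseudocount of 0.1. With a common sum S100a3 was at 1.33, above the threshold, and S100a1 at 0.761, below it.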

How the data were processed

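RNA-seq values of 1 mNRPC library and 1 retina library were used. The authors deposited FPKM values per RefSeq transcript. The submitters' processing notes name TopHat2 2.0.10 and the build GRCm38.p3, whereas the study's methods describe Bowtie 2 and eXpress, which divides reads among transcripts by estimation, and the sequencer is named differently in both sources. A value of 0 can be a failed estimate, and such a gene is described as listed at 0. Whether the library kit kept the strand is not given in the sources used here.

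The table held 106754 transcript rows, of which 74283 (69.6%) were matched to a gene of the RefSeq annotation (GRCm38.p6) or GENCODE M21, holding 93.2% of the FPKM of mNRPCs and 89.9% of that of retina. The matched rows were summed to 31253 genes. Genes with at least 1 FPKM in a library were compared on log2(FPKM + 1), with a log2 ratio of 1 in size as the threshold for higher or lower. The ratio is on that scale and understates the change of low genes, and folds are plain ratios of FPKM.

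Depth was estimated from the spacing of 697 and 732 low values, with 210 bases taken off each transcript length. Only a fixed range of depths was searched, so a depth outside it could not have been found. As only 57.7% and 54.0% of these lay within 0.2 of a whole fragment (40% by chance), reads were not recovered and no count test was run. Genes at or under 3 estimated fragments were treated as near the limit of detection. The estimator was also run on simulated data, but no outcome of that is given here, and nothing about the depth is read from it. Analyses used Python 3.11.15, numpy 2.4.6, pandas 2.3.3, scipy 1.17.1 and matplotlib 3.10.9.

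The members, the partner and marker lists and the alternatives were chosen with earlier results of these data known. Named were all 10 members, other S100 genes of at least 1 FPKM, partner genes of at least 10 FPKM with a log2 ratio of 2 or more in size, 10 direct partners at any level, the 3 genes nearest to each leading member, and genes next to an S100 gene. S100a8, the S100 genes listed at 0 in both libraries and the genes between the S100 blocks fall outside this rule. So do the partners Capza2, Ryr2, Kcnk3 and Asic1 and the single genes of the marker lists. All of these were named after their values were seen. Alternatives covered the pseudocount, the filter, the scaling, the transcript length, the rows summed, the matching and the threshold.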

Additional observations from a re-analysis of the deposited data

How the results depend on the processing

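The number of S100 genes higher in mNRPCs lay between 5 and 7 over the 12 alternatives, and 1 gene was lower in each. Of 88 values of the 10 genes under an alternative, 74 moved by less than counting error, 14 by more, and 0 changed direction. The summed S100 ratio of 78.2 moved to 52.9 with a common sum, 63.5 with upper quartile scaling and 58.2 without rod, cone and ribosomal protein genes. Under the same scalings the median log2 ratio of the partner genes moved from 1.44 to 0.953, 1.16 and 1.03, and without a filter to 0.913. These scalings shift log2 FPKM ratios by -0.56, -0.30 and -0.43, and the median of all genes compared, -0.12 as reported, was then -0.74, -0.39 and -0.50. Partner genes counted as higher numbered between 14 and 21, and as lower between 5 and 8. Without a pseudocount S100a3 and S100a5, listed at 0 in retina, gave no value, and S100a5 was at 0 when only curated transcripts were summed. No paired analysis was possible because a single library stood for either group. Depth limits S100b and S100a14 in mNRPCs and S100a3, S100a5 and S100a8 in both libraries, where the estimates rest on about 3 fragments or fewer.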

Other observations

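Between S100a7l2 and S100a11, in the gap of the S100 block of chromosome 3, lie 54 protein-coding genes, most of them genes of the epidermal differentiation complex that build the outer layer of skin. Of the 50 in the table, 6 had at least 1 FPKM in mNRPCs and 0 in retina, with sums of 35.6 and 1.07 FPKM. Of all 31253 matched genes, 11076 had at least 1 FPKM in mNRPCs and 12639 in retina, so such levels were less frequent in the gap. The genes of the gap were named after their values were seen. Sprr1a, a cornified envelope protein that is also known from injured neurons, had 24.8 FPKM in mNRPCs and a listed value of 0 in retina. Lce1g was at 2.97 FPKM, Sprr2a1 at 1.35 FPKM, Sprr2a2 at 1.34 FPKM and Crct1 at 1.02 FPKM in mNRPCs, and Tchh was at 1.07 FPKM in mNRPCs and 0.333 FPKM in retina. The Sprr2 and Lce genes are families of near-identical copies, so their single values are uncertain. The genes between the S100 blocks were thus mostly at or near 0 in both libraries, while S100a4, S100a6, S100a11 and S100a10 on either side had between 1372 and 3699 FPKM in mNRPCs. With 1 library per group, no difference in this region was tested.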
